A study of Homo sapiens with 6 samples.

Results

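The zinc finger gene clusters of human chromosome 19 were described by the open chromatin mapped in them. Peaks of the 12 deposited ATAC-seq lists were merged into 130887 regions wherever they shared at least 1 bp, and the 447 regions with a midpoint in 1 of 7 windows of chromosome 19 were taken as members. In hg19 coordinates the windows ran from 9.0 to 10.0, 11.6 to 13, 19.8 to 24.5, 36.5 to 38.5, 44.3 to 45.0, 52.3 to 54.0 and 56.5 to 59.1 Mb, and they are numbered 1 to 7 here. Only position set the members apart from other regions, so the rule did not use their folds, ranks or classes. Every region, member or not, has a peak in at least 1 list by construction. The other 2673 regions of chromosome 19 and the 127767 regions of the remaining autosomes and chromosome X served as references.

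These clusters hold most of the human genes for KRAB zinc finger proteins, a family of DNA-binding repressors that arose by repeated duplication of neighbouring genes. Through the KRAB domain they recruit the corepressor TRIM28, which brings in the histone methyltransferase SETDB1 and leads to H3K9 trimethylation, above all at transposable elements. The genes themselves are known for a mixed state, with open promoters at CpG islands and H3K9 trimethylation over the exons that encode the fingers, and many of them are active in some cell types and silent in others. In the RefSeq gene table of GRCh38.p14, 250 of 517 protein-coding genes with a numbered ZNF symbol lie on chromosome 19. No hg19 annotation or sequence was used here, so members were not assigned to genes, no sequences are shown, and that the windows hold KRAB genes is taken from their definition.

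ATAC-seq uses the Tn5 transposase to insert sequencing adapters into accessible DNA. It was done in 3 B-cell acute lymphoblastic leukemia lines, each with NSD2 knocked down by an shRNA (sh2) or with a non-targeting control shRNA (NT). NSD2 is a methyltransferase that places the dimethyl mark on lysine 36 of histone H3. RS411 is the title given to RS4;11, which like SEM carries a KMT2A-AFF1 fusion, and RCH was read as RCH-ACV, a line that the growth protocol lists. The labels describe 1 hairpin against NSD2, and give neither its delivery nor the time of harvest. The tissue label is bone marrow, which could not be checked against marker genes. NSD2 itself was not analysed here. Each of the 6 samples came with 2 peak lists, read as 2 libraries, and the labels do not tie them to separate cultures, so their spread may be technical only. With 1 sample per line and shRNA there was no test within a line. Tests over lines were exact two-sided sign-flip tests on 3 lines, which cannot give a p below 0.25.

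The lists held 41594 to 84794 peaks each, 718792 in all, and read depth is unknown. The members took 271 to 349 peaks of a list, 3709 in all. Each peak has a deposited value, read as the fold enrichment of the peak over the caller's background, between 1.604 and 44.2 over all lists. These folds are the authors' own and share no scale across lists. Set beside each other they describe a region and show no change in level. A member is called open in a list that has a peak in it and closed in a list that has none. In such lists, closed means that no peak was called, not that the DNA was inaccessible.

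As deposited, the members were open more broadly than other regions. Of the 447 members, 197 were open in all 12 lists, a share of 44.1% (exact 95% binomial interval 39.4 to 48.8), against 28.9% of the regions elsewhere on chromosome 19 (27.2 to 30.6) and 16.1% of those on other chromosomes (15.9 to 16.3). Where peaks of a list had to cover at least 50% of the merged region, the shares were 17.9%, 16.2% and 8.38%, so that the clusters and the rest of chromosome 19 were close. At the other end, 65 members were open in a single list, or 14.5% (11.4 to 18.2), against 21.0% (19.5 to 22.6) and 28.5% (28.2 to 28.7). The remaining 185 members were open in 2 to 11 lists. These intervals cover counting error only, and neighbouring regions and lists of 1 line are not independent, so no test was made.

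**Figure D1:**
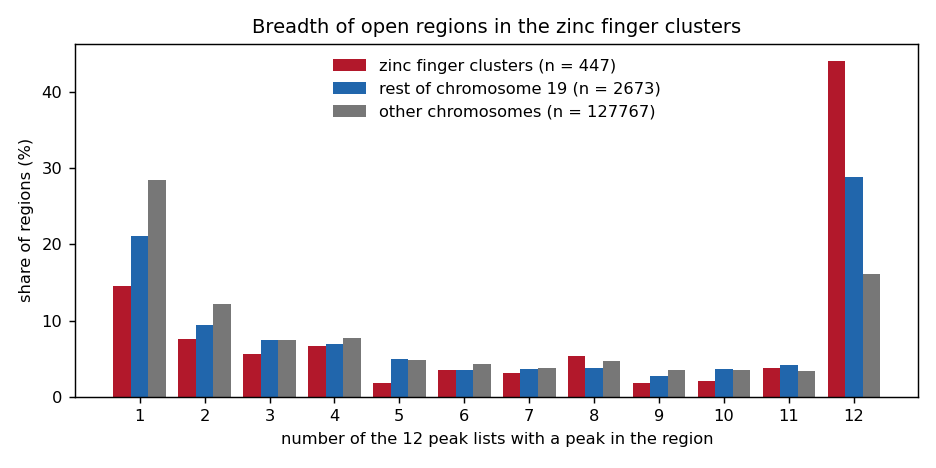
Share of regions (%) by the number of the 12 peak lists with a peak in the region, for the zinc finger clusters, the rest of chromosome 19 and other chromosomes. The bar at 12 lists reaches 44.1% for the clusters, 28.9% for the rest of chromosome 19 and 16.1% elsewhere.

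Members were also wider. Their median width was 643 bp, with quartiles of 346 and 850 bp and a range of 200 to 1762 bp, against medians of 441 bp on the rest of chromosome 19 and 357 bp on other chromosomes. Among regions open in all 12 lists the medians were close, at 853 bp for members, 800.5 bp for the rest of chromosome 19 and 838 bp elsewhere. Members open in fewer lists had a median of 373.5 bp, against 333 bp and 319 bp. A merged region grows with the number of lists that have a peak in it, so width and breadth share their source. The spacing was looser than on the rest of the chromosome. The median distance between neighbouring members was 18.5 kb, against 7.69 kb between the other regions of chromosome 19, and between members open in all 12 lists it was 37.2 kb, against 23.6 kb.

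The 7 windows were unequally filled. Window 2, at 11.6 to 13 Mb, was the densest, with 90 members or 64.3 per Mb. Many of them were packed into its last part, from 12775980 to 12992539, and which genes lie there was not examined. Window 7, which reaches the end of the long arm, had 105 members, or 40.4 per Mb. Window 3, at 19.8 to 24.5 Mb in the band next to the centromere on the short arm, was the longest and the sparsest, with 88 members or 18.7 per Mb. Windows 1, 4, 5 and 6 had 21, 57, 21 and 65 members. Over all windows there were 31.7 members per Mb, against 59.4 regions per Mb on the rest of chromosome 19, whose length was counted with its unassembled sequence. The share open in all 12 lists was lowest in window 3, where it was 28.4% (25 of 88 members), and ran from 43.1% to 57.1% in the other windows. The longest stretch without a peak in any list in each window was 413.3 kb in window 3 (22035161 to 22448505), 243.9 kb in window 7 (57149741 to 57393679) and 97.3 to 126.3 kb in windows 2, 4, 5 and 6. In window 1 it was 110.6 kb between neighbouring members and 137.0 kb with the edge of the window counted, at its start.

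In each window 1 member was singled out, the one open in all lists whose fold stood highest on average among the peaks of each list, as a percentile. The highest of these lay in window 3, on chromosome 19 from 23432686 to 23433519, at a mean percentile of 97.5. Its folds were 17.3 and 20.4 in RS411 sh2, against 22.1 and 20.8 in RS411 NT. SEM gave 17.2 and 14.2 with sh2, against 13.7 and 12.3 with NT. RCH gave 14.3 and 12.2 with sh2, against 19.1 and 16.2 with NT. Every list placed a strong peak there, the lowest being 12.2 in RCH sh2 library 2. In window 7 the member from 58789843 to 58790853 stood at a mean percentile of 96.2, with less spread. RS411 gave 16.2 and 17.3 with sh2, against 15.9 and 16.9 with NT. SEM gave 16.1 and 15.5 with sh2, against 15.8 and 14.5 with NT, and RCH gave 13.2 and 12.2 with sh2, against 13.03 and 14.7 with NT. The leading members of windows 1 (9945350 to 9946313), 2 (11707971 to 11708834), 4 (37861519 to 37862395), 5 (44668862 to 44669585) and 6 (53465504 to 53466473) had mean percentiles of 93.4, 92.6, 95.2, 85.2 and 93.9.

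**Figure D2:**
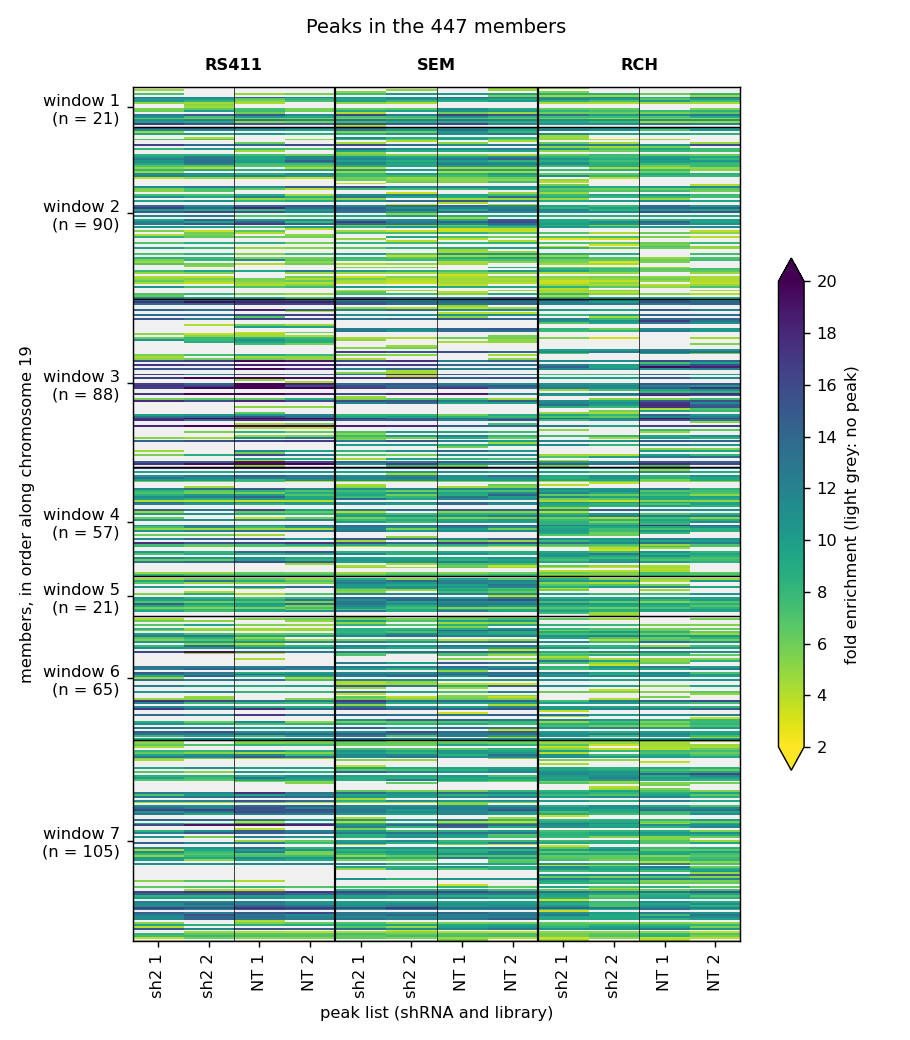
Fold enrichment (colour scale, the authors' value per peak) of the 447 members in the 12 peak lists. Rows are members in order along chromosome 19, grouped by window, columns are the libraries of each line with sh2 left of NT, and light grey means no peak. The 197 members open in all lists appear as rows without grey, and window 3 has the smallest share of them, 28.4%.

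The lines differed in how much of the clusters they opened. RS411 had a peak in at least 1 of its 4 lists at 296 members (66.2%), SEM at 356 (79.6%) and RCH at 366 (81.9%). On other chromosomes the order was the opposite, with 73.7% of regions open in RS411, 60.1% in SEM and 56.1% in RCH. Thus the line with peaks at the most regions of other chromosomes had peaks at the fewest members. The rest of chromosome 19 had the order of the clusters, with 60.2% in RS411, 74.9% in SEM and 76.6% in RCH. Open in all 4 lists of a line were 217 members in RS411, 261 in SEM and 259 in RCH. The order describes these 3 lines only.

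The clearest pattern within the clusters was a set of members that were closed in RS411. At 17 members (3.80%) no RS411 list had a peak and all 8 lists of SEM and RCH did, against 0.355% of all regions. The shares were 0.786% on the rest of chromosome 19 and 0.334% on other chromosomes. This pattern was counted after its values had been seen. The reverse, open in all 4 lists of RS411 and in none of the others, was found at 0 of 447 members, which allows a share of up to 0.822% at the exact 95% interval, against 2.03% of all regions. Of the 17 members, 8 lay in window 7, 5 in window 3, 2 in window 4, 2 in window 6 and none in windows 1, 2 and 5. The count was 17 to 20 with any single library left out, 17 with lists of equal length within a line and 19 with all 12 lists cut to the same length. It was 10 with only peaks above the pooled median fold, and 9 without window 7. The share of all regions with this pattern was computed only as deposited, so these counts do not show whether the excess is stable.

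These 17 members were strong where they were open. In the SEM and RCH lists their mean percentile of fold ranged from 43.3 to 95.9, with a median of 81.7. For regions with the same pattern the median was 43.3 for the 21 on the rest of chromosome 19 and 60.5 for the 427 on other chromosomes. High ranks were not particular to these members, as members as a whole also stood above the middle on another scale. Among regions open in all 4 lists of a line, members had median percentiles of 67.4 to 78.1 in SEM and 57.1 to 74.8 in RCH. That scale leaves out regions open in fewer lists. Its values are therefore not directly comparable with the 81.7, which is among all regions open in a list. The highest was the member from 20748008 to 20748898 in window 3, 891 bp wide. SEM gave folds of 16.7 and 14.9 with sh2, against 15.6 and 13.8 with NT. RCH gave 11.2 and 12.4 with sh2, against 13.6 and 13.6 with NT, and RS411 had no peak with either shRNA. The member from 22018454 to 22019303, also in window 3, gave 11.6 and 13.4 with sh2, against 9.36 and 9.62 with NT, in SEM. It gave 11.7 and 11.0 with sh2, against 17.3 and 11.4 with NT, in RCH. In window 4 the member from 37288091 to 37288772 gave 10.3 and 10.9 with sh2, against 10.9 and 12.4 with NT, in SEM. It gave 10.5 and 12.4 with sh2, against 12.2 and 12.3 with NT, in RCH. At all 3 members the libraries of both lines were high, whichever shRNA they carried. They were chosen for the highest mean percentile over these 8 lists, so this follows from the choice. Regions open in all 4 RS411 lists lay nearby. The nearest was at a median of 35.3 kb (4.52 to 106.4 kb), and 8 of the 17 had one within 100 kb on both sides. Whether any of these members is deleted in RS411 was not tested.

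A second set was open in RCH alone. All 4 RCH lists and no other list had a peak at 18 members (4.03%), against 0.889% of all regions, 1.68% on the rest of chromosome 19 and 0.861% on other chromosomes. Of these 18, 8 lay in window 3, 5 in window 7, 2 each in windows 4 and 6, and 1 in window 2. The count was 18 to 22 with any single library left out, 15 with only peaks above the pooled median fold, and 10 without window 3. For those settings too the share of all regions was not computed, so whether the excess holds there is unknown. Their mean percentile in the RCH lists had a median of 82.5 (49.8 to 95.8). For regions open in RCH alone it was 41.6 for the 45 on the rest of chromosome 19 and 42.7 for the 1100 on other chromosomes. The median width of the 18 members was 705 bp, against 482 bp and 497 bp. The 3 highest lay in window 3. The member from 21182439 to 21183259 had folds of 14.4 and 9.62 in RCH sh2, against 19.6 and 18.3 in RCH NT. The member from 22034426 to 22035160 had 13.4 and 10.4 in RCH sh2, against 17.8 and 14.7 in RCH NT. The member from 21751864 to 21752549 had 10.5 and 10.8 in RCH sh2, against 18.1 and 14.9 in RCH NT. At these 3 members both sh2 folds lay below both NT folds. The folds are not on a common scale, and over all 18 members the median rank among regions open in all 4 RCH lists was 72.9 and 77.2 in sh2, against 76.1 and 72.8 in NT, so that the libraries overlapped.

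Other patterns between lines were rare in the clusters. SEM alone was open at 2 members, against 0.957% of all regions. These were weak peaks in windows 3 (19971907 to 19972216) and 6 (53237632 to 53238014), with folds of 3.22 to 4.98. SEM alone was closed at 1 member (36983794 to 36984286), against 0.426% of all regions, and RCH alone at 1 member (57833151 to 57833524), against 1.44% of all regions. Every line was either fully open or fully closed at 236 members. Of these, 197 were open in all lines, 17 were closed in RS411 alone and 18 were open in RCH alone. The 197 were 83.47% of the 236, against 84.46% of such regions on the rest of chromosome 19 and 72.49% on other chromosomes. By this share the clusters were close to the rest of chromosome 19, and not more broadly open.

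**Figure D3:**
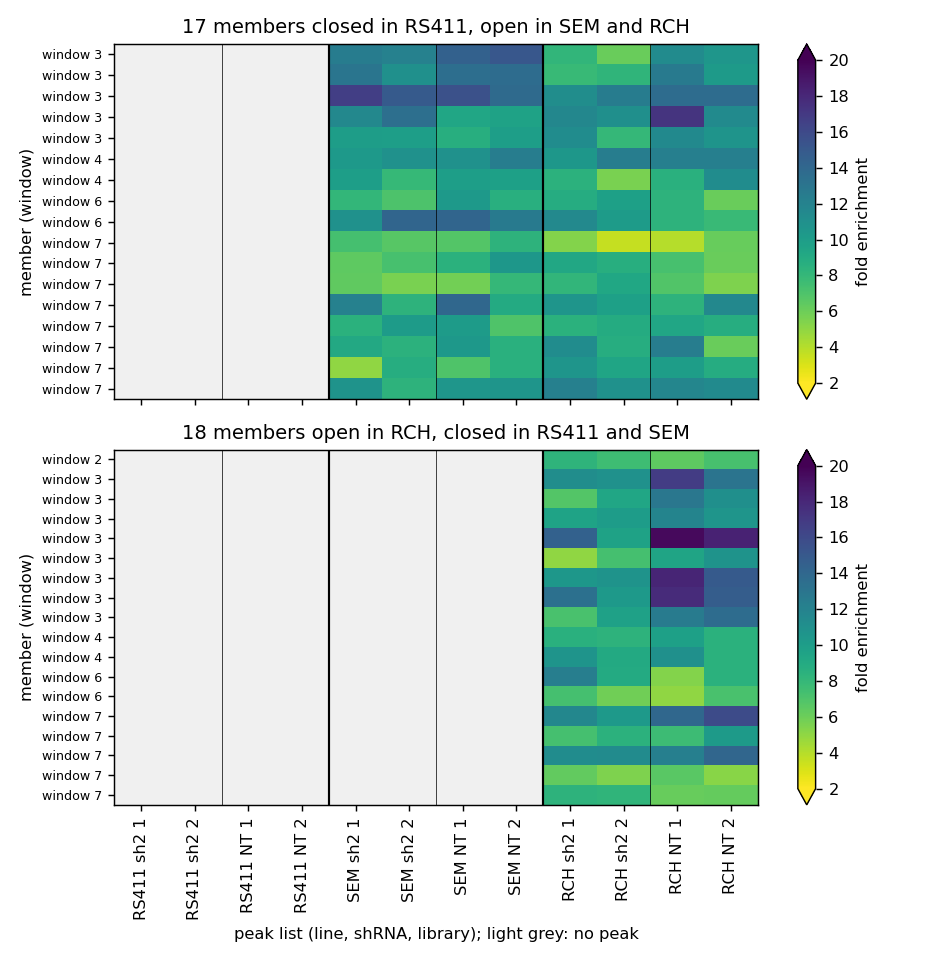
Fold enrichment (colour scale) in the 12 peak lists for the 17 members closed in RS411 and open in SEM and RCH (upper panel) and the 18 members open in RCH alone (lower panel). Rows are members labelled by window, columns are libraries with sh2 left of NT in each line, and light grey means no peak. The grey blocks span sh2 and NT libraries alike, as the members were chosen for.

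Both patterns met in more than 1 place. In window 3 the member from 22018454 to 22019303, closed in RS411 alone, neighboured that from 22034426 to 22035160, open in RCH alone. A stretch of window 7 was singled out after its values were seen. Between 58.45 and 58.68 Mb lay 9 members. RCH was open in all 4 lists at 8 of them, SEM at 3 and RS411 at 0. Of the 9, 3 were closed in RS411 alone (58458714 to 58459397, 58513824 to 58514553 and 58609126 to 58609917) and 4 were open in RCH alone (58520792 to 58521524, 58545105 to 58545752, 58570454 to 58571092 and 58666208 to 58666762). The strongest of the 4 was that from 58545105 to 58545752, with folds of 11.3 and 11.4 in RCH sh2 and 12.3 and 14.0 in RCH NT. RS411 had peaks at 1 of the 9 members (58661751 to 58662345), with folds of 5.33 and 6.90 in its sh2 lists and 4.25 in NT library 1. The longest run of neighbouring members closed in RS411 was in this part of the window, with 8 members over 163.4 kb from 58446470 to 58609917.

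The next comparison asked whether NSD2 knockdown changed the number of open sites in the clusters. In the lists as deposited, the number of peaks in the clusters differed less between sh2 and NT than the lists did. With lists of equal length within a line the log2 ratio of sh2 over NT in the clusters was 0.12 in RS411, -0.16 in SEM and 0.24 in RCH, further from 0 than as deposited. As deposited, the lists as a whole differed by -21.4% in RS411, 16.1% in SEM and -24.4% in RCH. RS411 had 271 and 272 peaks in the clusters with sh2, against 286 and 281 with NT, a mean of 271.5 ± 0.707 against 283.5 ± 3.54 (SD, n = 2 libraries each), or -4.23%. SEM had 326 and 302 with sh2, against 319 and 323 with NT, a mean of 314 ± 17.0 against 321 ± 2.83, or -2.18%. RCH had 349 and 330 with sh2, against 329 and 321 with NT, a mean of 339.5 ± 13.4 against 325 ± 5.66, or 4.46%. The libraries of sh2 lay below those of NT in RS411, above them in RCH, and overlapped them in SEM. On other chromosomes the change was -22.0% in RS411, 16.9% in SEM and -25.8% in RCH, and on the rest of chromosome 19 it was 6.75%, -4.57% and 20.6% in the same lines.

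As log2 ratios of sh2 over NT, the clusters as deposited gave -0.06 in RS411, -0.03 in SEM and 0.06 in RCH, which averaged -0.01 ± 0.07 (SD over n = 3, p = 1 by the exact sign-flip test). The ratio in the clusters minus that on the rest of chromosome 19 was -0.16, 0.04 and -0.21, with a mean of -0.11 ± 0.13 (exact sign-flip test, p = 0.5). The ratio in the clusters minus that on other chromosomes was 0.30, -0.26 and 0.49, with a mean of 0.18 ± 0.39 (exact sign-flip test, p = 0.5). None of the 5 tests over lines passed, with p-values of 0.5 to 1 and adjusted values (Benjamini-Hochberg over these 5) of 0.938 to 1. The direction of the number in RS411 turned with the processing. With equal lists it was 0.12, as above, with peaks above the pooled median fold 0.04, and without window 3 it was 0.003.

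The share of a list that fell in the clusters moved in opposite directions between lines. In RS411 it was 0.440% and 0.429% with sh2, against 0.337% and 0.379% with NT. In SEM it was 0.508% and 0.485% with sh2, against 0.593% and 0.587% with NT. In RCH it was 0.789% and 0.793% with sh2, against 0.582% and 0.562% with NT. Libraries of sh2 and NT did not overlap in any of the lines. The differences were 0.077, -0.093 and 0.219 percentage points, which averaged 0.068 ± 0.156 (SD, p = 0.75 by the exact sign-flip test). The size depended on the lists. With lists of equal length within a line the differences were 0.034, -0.062 and 0.121, and with peaks above the pooled median fold they were 0.090, -0.189 and 0.638. The length of the lists moved with the shRNA and depth is unknown, so depth and chromatin cannot be told apart.

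**Figure D4:**
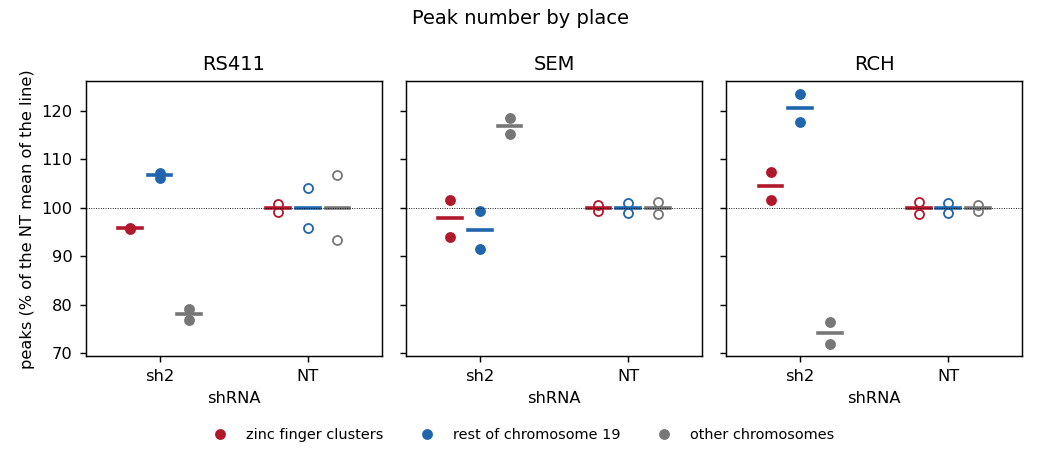
Peaks in each library, in the lists as deposited, as a percentage of the mean of the 2 NT libraries of the line, for the clusters, the rest of chromosome 19 and other chromosomes. Filled points are sh2 libraries, open points NT libraries, and bars their means. The sh2 means of the clusters lie within 5 percentage points of NT in every line, at -4.23%, -2.18% and 4.46%, while those of other chromosomes lie at -22.0%, 16.9% and -25.8%.

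The windows were unequal in this respect too. In RS411, window 3 had 38 and 38 peaks with sh2, against 52 and 49 with NT, or -24.8%, while the other 6 windows together had 233 and 234, against 234 and 232, or 0.215%. In RCH, window 3 had 50 and 51 peaks with sh2, against 55 and 57 with NT, or -9.82%, while the others had 299 and 279, against 274 and 264, or 7.43%. In SEM, window 3 had 49 and 47 with sh2, against 45 and 47 with NT, or 4.35%, and the others 277 and 255, against 274 and 276, or -3.27%. Window 3 thus followed the direction of the other chromosomes in each line, with libraries of sh2 and NT apart in RS411 and RCH and overlapping in SEM. That window was set apart after the values were seen, and the difference was not tested.

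Peak strength was compared by rank, within the fixed set of regions open in all 4 lists of a line, which is the same in each of its lists. Such regions numbered 46640 in RS411, 37830 in SEM and 27986 in RCH, with 217, 261 and 259 members among them, so the other members do not enter. The median member stood above the middle of the set in all 12 lists. In RS411 its percentile was 67.2 and 65.8 with sh2, against 57.8 and 61.2 with NT. In SEM it was 69.9 and 67.4 with sh2, against 78.0 and 78.1 with NT. In RCH it was 74.1 and 74.8 with sh2, against 57.1 and 59.0 with NT. Members thus ranked higher with sh2 in RS411 and RCH and lower in SEM, with no overlap between libraries. The differences were 6.98, -9.42 and 16.4 points, which averaged 4.66 ± 13.1 (SD, p = 0.75 by the exact sign-flip test). Regions on the rest of chromosome 19 differed in the same directions, by 12.95 points in RS411, -11.6 in SEM and 21.8 in RCH, and those of other chromosomes by -0.363, 0.476 and -1.21.

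Again window 3 stood apart from the other windows. Its members held the highest ranks in every line, at 88.5 with sh2 against 92.3 with NT in RS411, 88.6 against 88.6 in SEM, and 84.5 against 90.3 in RCH. These are differences of -3.82, 0.035 and -5.74 points, from 31, 38 and 40 members. Ranks so near the top leave little room to rise, so they do not compare evenly with those of the other windows. Whether this bears on the differences was not tested. The other 6 windows together differed by 10.3, -10.7 and 21.6 points, from 186, 223 and 219 members. In RCH, 19 of the 40 members of window 3 ranked lower in both sh2 libraries than in either NT library and 2 ranked higher, while in the other windows 7 of 219 ranked lower and 139 higher. In RS411 12 of 31 ranked lower and 0 higher in window 3, against 15 and 64 of 186 in the other windows. In SEM the counts were 12 lower and 3 higher of 38 in window 3, against 109 and 8 of 223. Window 7 was the exception among the others in RS411, with a difference of 1.36 points and 11 members on each side. Of regions on the rest of chromosome 19, 42.3% ranked higher and 4.95% lower in RS411, 6.41% and 45.2% in SEM, and 62.7% and 5.89% in RCH. On other chromosomes the shares were 25.2% and 20.1%, 23.5% and 26.5%, and 26.7% and 26.2%. The other 6 windows had 34.4% higher in RS411, 48.9% lower in SEM and 63.5% higher in RCH. They thus went the way of the rest of chromosome 19. Members of 1 window are not independent, so the counts were not tested.

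**Figure D5:**
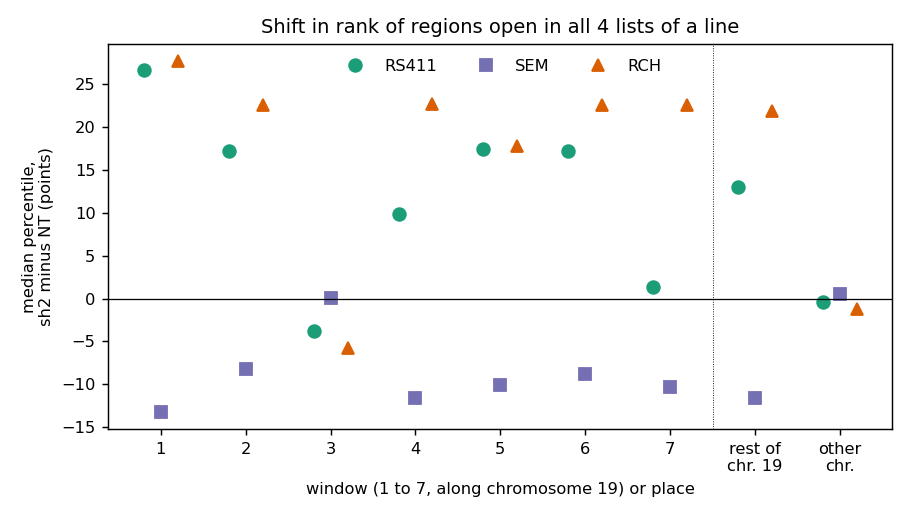
Difference in the median percentile of fold, sh2 minus NT (points), among regions open in all 4 lists of a line, for members of each window, the rest of chromosome 19 and other chromosomes. Points are lines, each the mean of 2 sh2 libraries minus the mean of 2 NT libraries. Window 3 lies at -3.82 (RS411), 0.035 (SEM) and -5.74 (RCH). In RS411 window 7 lies near it, at 1.36.

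Few members were open with 1 shRNA only. A member was sh2-only in a line where both sh2 libraries and no NT library had a peak, and NT-only in the reverse case. In RS411, 1 of 296 open members was sh2-only, against 0.854% of all regions open in that line, and 12 were NT-only (4.05%), against 9.79%. In SEM, 5 of 356 were sh2-only (1.40%), against 7.69%, and 8 were NT-only (2.25%), against 2.59%. In RCH, 11 of 366 were sh2-only (3.01%), against 1.9%, and 6 were NT-only (1.64%), against 10.6%. Changed members of either class made up 4.39%, 3.65% and 4.64% of the open members in RS411, SEM and RCH, against 10.6%, 10.3% and 12.5% of all open regions. On the rest of chromosome 19 the share was 5.16%, 5.84% and 9.38%, also below that of all open regions in each line. Members open in all 4 lists of a line were 73.3%, 73.3% and 70.8% of the open members, against 48.5%, 47.8% and 37.8% of all open regions. So the smaller share of changed members came with a larger share that every library of the line called.

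The balance of the classes turned with the length of the lists. With lists of equal length within a line, 10 of 286 open members were sh2-only in RS411 (3.497%), against 3.67% of all regions open there, and 7 were NT-only (2.45%), against 6.43%. In SEM 3 of 349 were sh2-only (0.860%), against 6.06%, and 16 were NT-only (4.58%), against 4.99%. In RCH 24 of 355 were sh2-only (6.76%), against 4.9%, and 4 were NT-only (1.13%), against 6.7%. There, a peak may be missing only because shortening removed it. Of the NT-only members as deposited, 8 of 12 in RS411 and 5 of 6 in RCH lay in window 3. That window held 54 and 58 of the members open in these lines. NT-only were 14.8% of them in RS411, against 9.79% of all open regions, and 8.62% in RCH, against 10.6%. So in RCH window 3 was below the share of all open regions. Without window 3, RS411 had 1 sh2-only (0.413%) and 4 NT-only members (1.65%), against 0.854% and 9.79% of all open regions. RCH had 10 (3.25%) and 1 (0.325%), against 1.9% and 10.6%. Counts were up to 9 sh2-only and 26 NT-only members in RS411, 16 and 22 in SEM and 36 and 14 in RCH with 1 library left out, where the shares of all open regions were up to 4.28% and 25.1%, 17.3% and 7.75%, and 7.87% and 25.2%.

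The single sh2-only member of RS411 lay in window 2 from 12175317 to 12175888, with folds of 5.33 and 6.90 in RS411 sh2. RCH was open there in all lists, with 7.27 and 6.74 with sh2 and 7.78 and 6.13 with NT, and SEM was closed. The 3 NT-only members of RS411 with the highest mean percentile lay in window 3. That from 20273614 to 20273968 was open in RS411 NT alone, with folds of 9.79 and 9.77. That from 23692530 to 23693343 had folds of 4.85 and 5.64 in RS411 NT and was also open throughout SEM and RCH, at 7.603 to 11.9. That from 22448506 to 22449311 had folds of 5.15 and 4.98 in RS411 NT, was open in RCH with 8.45 and 7.84 in sh2, against 17.3 and 15.3 in NT, and was closed in SEM.

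In RCH the 3 leading NT-only members also lay in window 3. That from 23982040 to 23982495 had folds of 9.92 and 9.19 in RCH NT and was open in all SEM lists, at 8.19 and 10.9 with sh2 and 13.5 and 10.6 with NT. It was also open in RS411 sh2 library 1 (4.62) and in both RS411 NT libraries (11.5 and 9.62). Those from 21041503 to 21041972 and from 21657381 to 21657839 were open in RCH NT alone, with folds of 7.25 and 9.53 and of 7.86 and 8.17. The 3 leading sh2-only members of RCH lay in windows 5 and 2. That from 44455058 to 44455724 had folds of 5.35 and 4.20 in RCH sh2 and was also open throughout RS411 and SEM, where SEM had 12.6 and 10.4 with sh2 and 12.3 and 11.0 with NT. That from 44905626 to 44905937 was open in RCH sh2 alone, with 7.603 and 4.76. That from 12674869 to 12675357 had 8.45 and 5.32 in RCH sh2, was open in all SEM lists and was closed in RS411.

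In SEM the 3 leading sh2-only members lay from 20475905 to 20476339, from 56683293 to 56683557 and from 21211334 to 21211580, with folds of 4.56 to 5.63 in SEM sh2. The 3 leading NT-only members lay from 20399847 to 20400370, from 57149380 to 57149740 and from 52854817 to 52855216, with folds of 4.32 to 6.83 in SEM NT.

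Hardly any member changed alike in several lines. Over all lines 40 members (8.95%) were sh2-only or NT-only in at least 1 line, against 19.3% of all regions. With equal lists within a line there were 55 of 428 (12.9%), against 19.5%. At 1 member both SEM and RCH were sh2-only, against 0.0902% of all regions sh2-only in at least 2 lines. It was that from 56683293 to 56683557 in window 7, where SEM gave 5.46 and 4.91 with sh2 and RCH gave 5.67 and 5.08 with sh2. It was also open in RS411 sh2 library 1 (4.26). At 1 member RS411 and SEM were NT-only, against 1.08% of all regions NT-only in at least 2 lines. It was that from 57149380 to 57149740 in window 7, at the edge of the longest stretch without peaks of that window. RS411 gave 5.46 and 4.98 with NT and SEM gave 6.83 and 5.85 with NT, while RCH was open there with sh2 alone, at 5.63 and 4.76. As deposited it was the only member that was sh2-only in 1 line and NT-only in another, against 0.61% of all regions, and with equal lists there were 4 such members, against 0.767%. With equal lists there were also 4 sh2-only members in at least 2 lines (0.935%, against 0.351% of all regions) and 1 NT-only member (0.234%, against 0.761%).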

How the data were processed

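ATAC-seq peak lists of 6 samples, 2 lists each, were analysed. Bowtie2, MACS2 and hg19 are named, without roles, in the submitters' processing notes. Whether duplicates were removed or reads shifted for the transposase is not given in the sources used here, nor are versions. The authors' fold column, inferred from its range to be the caller's ratio of peak to background, was used as deposited. Depth is unknown, so no floor was given.

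Peaks were kept on 22 autosomes and chromosome X (140 on other sequences were dropped) and merged at an overlap of at least 1 bp, checked with bedtools 2.31.1, which gave the same 130887 regions. Peaks were placed by their own midpoint and regions by theirs. Libraries are numbered in the order of the numbers in the peak names. Percentiles are of fold within a list, or, for ranks, within regions open in all 4 lists of a line. Intervals are exact binomial (Clopper-Pearson) at 95%. sh2 and NT were paired by cell line. The steps were tested on simulated lists with planted classes.

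Named regions are, per window, the member open in all lists with the highest mean percentile and the longest stretch without a peak, per line the 3 leading sh2-only, NT-only and line-restricted members, and every member changed in at least 2 lines. The members, lists and tests were chosen with earlier results of these data known. A planned comparison of base composition was not made, since no hg19 sequence was used. Software: scipy 1.17.1, numpy 2.4.6, pandas 2.3.3 and matplotlib 3.10.9 under Python 3.11.15.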

Additional observations from a re-analysis of the deposited data

Results flagged for a closer look

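Peak number in the clusters differed between lines in direction. It was lower with sh2 by 12 peaks (-12) in RS411 and higher by 14.5 in RCH, with every sh2 library beyond every NT library in both. The share of a list's peaks in the clusters differed by 0.077 percentage points in RS411, -0.093 in SEM and 0.219 in RCH, and the median percentile of members by 6.98 points in RS411, -9.42 in SEM and 16.4 in RCH, again with sh2 and NT libraries apart in each line. These differences between lines were not tested.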

How the results depend on the processing

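Of the recomputed values, 16 changed sign, 161 moved beyond a set range and 703 were counted as the same. Some of the 703 were fixed in advance, since leaving out a library of 1 line does not alter the peak ratios of another. Requiring peaks to cover part of the merged region also left every peak ratio and share in the clusters unchanged. A mean over lines was counted as the same whenever its sign held, whatever its size. The ratio minus that of other chromosomes, 0.18, was so counted at 0.019 without RCH. The 703 is therefore no measure of stability. No test over lines passed in any alternative, which the design does not allow, so this says nothing of stability. The mean log2 ratio of peaks in the clusters, -0.01, changed sign easily. It was 0.064 with equal lists within a line, 0.085 with all 12 lists of equal length, 0.013 with peaks above the pooled median fold, 0.016 without RS411, 0.00029 without SEM, 0.020 without window 3, and -0.029 to 0.0076 with 1 library left out. In RS411 alone it was 0.116, 0.175, 0.045 and 0.0031 with equal lists, all lists equal, stronger peaks and without window 3. In SEM it was -0.088 to 0.022 with 1 library left out. The ratio minus that of the rest of chromosome 19 was 0.048 in RCH with stronger peaks. Without RCH the mean share difference was -0.0082 percentage points and the mean rank difference -1.22. Without SEM the mean rank difference was 11.5. The ratio minus that of other chromosomes, 0.18, was 0.019 without RCH, 0.394 without SEM and 0.072 with equal lists. The mean ratio minus that of the rest of chromosome 19, -0.11, was -0.029 with stronger peaks and -0.178 with equal lists, where RCH alone gave -0.442. The causes were not tested.

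Pairing was by line. Without this block an exact permutation test of 3 against 3, which cannot give a p below 0.1, gave the same differences of -0.01, -0.11, 0.18 and 0.068, with p = 1, 0.3, 0.6 and 0.7 for the log2 ratio, that minus the rest of chromosome 19, that minus other chromosomes, and the share.

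Counts of changed members depended on processing. With equal lists within a line, sh2-only and NT-only counts were 10 and 7 in RS411, 3 and 16 in SEM and 24 and 4 in RCH. With all lists equal they were 12 and 5 of 227 open members in RS411 (all open regions 3.96% and 6.05%), 1 and 11 of 301 in SEM (5.52% and 5.04%) and 24 and 4 of 355 in RCH (4.94% and 6.68%). With stronger peaks they were 8 and 5 of 218 in RS411 (1.72% and 8.99%), 1 and 5 of 254 in SEM (9.84% and 2.55%) and 10 and 11 of 272 in RCH (0.934% and 19.4%). With peaks covering 50% of the region they were 5 and 20 of 265 in RS411 (1.06% and 11.6%), 4 and 12 of 353 in SEM (9.14% and 3.28%) and 20 and 11 of 346 in RCH (2.63% and 12.4%). Against the shares of all open regions as deposited, without window 2 they were 0 sh2-only in RS411, 5 NT-only in SEM and 7 sh2-only in RCH, and without window 3 they were 4 NT-only in RS411, 1 NT-only in RCH and 3 sh2-only in SEM. With 1 library left out they were 1 to 9 and 12 to 26 in RS411, 5 to 16 and 8 to 22 in SEM, and 10 to 36 and 6 to 14 in RCH. In at least 2 lines, 4 members were sh2-only with equal, all-equal or stronger lists. These were 0.935%, 1.04% and 1.31% of members, against 0.351%, 0.31% and 0.13% of all regions. NT-only in at least 2 lines were 2 with stronger peaks (0.654%, against 1.12%) or 50% coverage (0.447%, against 1.13%). There were 0 of either class without window 7, 0 sh2-only without SEM or RCH and 0 NT-only without RS411 or SEM. With 1 library left out there were 1 to 3 of each. For settings that drop a window, line or library, these shares of all regions were not computed.

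The share of members open in all lists was 17.9% with 50% coverage, 52.3% without RS411, 54.3% without RCH and 44.2% to 46.0% with 1 library left out. For the line-restricted counts that follow, the share of all regions was computed only as deposited. Leaving out a line also loosens the definition for every region, so a rise there is no result about the members. Closed in RS411 alone were 10 members with stronger peaks or 50% coverage, 37 without SEM, 9 without window 7 and 17 to 20 with 1 library left out. Open in RCH alone were 37 without SEM, 10 without window 3 and 18 to 22 with 1 library left out. Open in RS411 alone was 1 with stronger peaks or without RCH, 5 without SEM, and 0 to 1 with 1 library left out. Open in SEM alone were 0 with equal lists, 1 with all lists equal or without window 3 or 6, 4 with stronger peaks, 9 with 50% coverage, 6 without RS411, 25 without RCH and 2 to 5 with 1 library left out. Closed in SEM alone were 0 with equal, all-equal or stronger lists, with 50% coverage or without window 4, 23 without RS411, and 1 to 3 with 1 library left out. Closed in RCH alone were 0 with equal, all-equal or stronger lists or without window 7, 2 with 50% coverage, 6 without RS411, 5 without SEM, and 1 to 2 with 1 library left out. Lists cut to all the same length, and stretches counted to a window's edge, were chosen after seeing the data. Base composition was not analysed here.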
